A study of Mus musculus with 17 samples.

Results

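The 10 immediate early genes of activated T cells followed here, across 6 groups of sorted mouse Th2 cells, were Egr1, Egr2, Egr3, Nr4a1, Nr4a3, Fos, Fosb, Fosl2, Jun and Junb. They are a list of names with no threshold on a value, and all 10 were found among the 24537 genes of each of the 17 deposited RNA-seq tables. Airway Th2 cells (bronchoalveolar lavage, 3 libraries) and lymph node Th2 cells (mediastinal node, which drains the lung, 3 libraries) came from Gata3-YFP reporter mice, GATIR in the labels, which carry a yellow fluorescent protein as a reporter of the Th2 regulator gene Gata3. OTII_Notch1/2-KO mice (4 libraries) and OTII mice without that label, called wild type here after the sample titles (3 libraries), gave Th2 cells of the same node. OTII mice carry a transgenic T cell receptor for a peptide of ovalbumin. Both lymph node sets came from animals with an allergen-driven airway inflammation, and the column headers of the OTII node tables name OVA-HDM as the allergen. OTII_Notch1/2-KO (2 libraries) and OTII (2 libraries) mice also gave cultured Th2 cells, made from naive spleen T cells in 7 days on plates coated with anti-CD3/CD28, in medium holding IL-4 and blocking antibodies to IFN-γ and to IL-12/23. All cells were sorted by flow cytometry, and the RNA was made into libraries by Smart-seq2, a method for small amounts of RNA. The labels give neither the ages of the mice nor the promoter or Cre line behind the knockout, and they do not say which replicates are separate animals. Where replicates share an animal, the spread between them is technical only. The p-values count them as separate and may then understate the spread between animals.

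Immediate early genes are switched on within minutes of a signal, such as an engaged T cell receptor, from factors already present in the cell, and their products then act on slower genes. EGR1, EGR2 and EGR3 are zinc finger transcription factors, and EGR2 and EGR3 are known both for activating and for restraining T cells, including in anergy, a state of reduced response. NR4A1 (Nur77) and NR4A3 (NOR-1) are orphan nuclear receptors whose genes serve as reporters of recent T cell receptor signalling. FOS and JUN proteins pair to form AP-1, which works with NFAT at cytokine genes, and JUNB is known in Th2 cells for its part at the Il4 gene.

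Depth, read back from the RPKM values (reads per kilobase of transcript and per unit of library size), was 16.3 to 27.5 M reads (mega-reads) per library, so each level below is a scaled RPKM unless it is called a read count. The Notch1 level, the check of the labels, averaged 10.9 ± 2.31 in knockout-labelled node cells and 47.9 ± 1.47 in wild type node cells (SD, n = 4 and 3), a log2 fold change of -2.06 (limma adjusted p = 5.49e-05). Notch2 averaged 16.2 ± 2.09 and 7.88 ± 0.305 in the same groups, a log2 fold change of 0.95 (adjusted p = 0.000595). In culture, Notch1 averaged 2.64 ± 2.24 in knockout-labelled and 27.9 ± 2.22 in wild type cells (SD, n = 2 each), a log2 fold change of -3.14 that did not pass after adjustment (unadjusted p = 3.62e-05, adjusted p = 0.333), and Notch2 averaged 6.90 ± 0.365 and 7.51 ± 0.198 in the same genotypes (adjusted p = 0.9997). These values count the whole transcript and do not show whether a deleted part is missing. Reporter cells, which carry no knockout label, had Notch1 at 7.70 ± 4.42 in the airway and 6.88 ± 1.89 in the node. A low Notch1 level thus does not mark the knockout by itself, and the check holds only within OTII cells of 1 source. All 10 T cell markers examined, Cd3e, Cd4 and Gata3 among them, were at 1 or more in every library. Genes listed at 0 numbered 12177 to 14385 per reporter library and 9432 to 10128 per OTII library. The part of this difference in low values of reporter libraries was not tested. Libraries of a group differed by more than counting noise in every pair, with a chi-square per degree of freedom of 143 to 224 among airway and 45.2 to 78.1 among node reporter libraries. Knockout-labelled node replicate 2 stood apart from the other knockout-labelled node libraries, with 30.7 to 57.8 against them, while the pairs among the other 3 gave 8.94 to 21.0. Airway libraries held macrophage transcripts, whose values stand beside the airway comparison.

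Of the 10 genes, 2 cannot be set side by side across all groups. Egr3 was counted on the transcript NM_001289927 in the reporter tables and on NM_018781 in the OTII tables, and Fosb on NM_001347586 and NM_008036. For these 2 genes, levels are compared within reporter tables or within OTII tables only. The other 8 had the same transcript throughout. The OTII and reporter tables come from different kinds of mice and have column headers of different form, so their libraries may be separate batches. An order across them is therefore a description of levels. In bulk RNA, fewer cells with a transcript and less transcript per cell cannot be told apart.

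The widest differences in OTII cells lay between the lymph node and culture. In these cells 9 of the 10 genes had higher means in the lymph node than after 7 days of culture, and Fosl2 was the reverse. Junb had the highest level of the 10 in every group, and Fos, Nr4a1, Egr1 and Jun were the next in the lymph node groups of both kinds of mice.

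**Figure D1:**
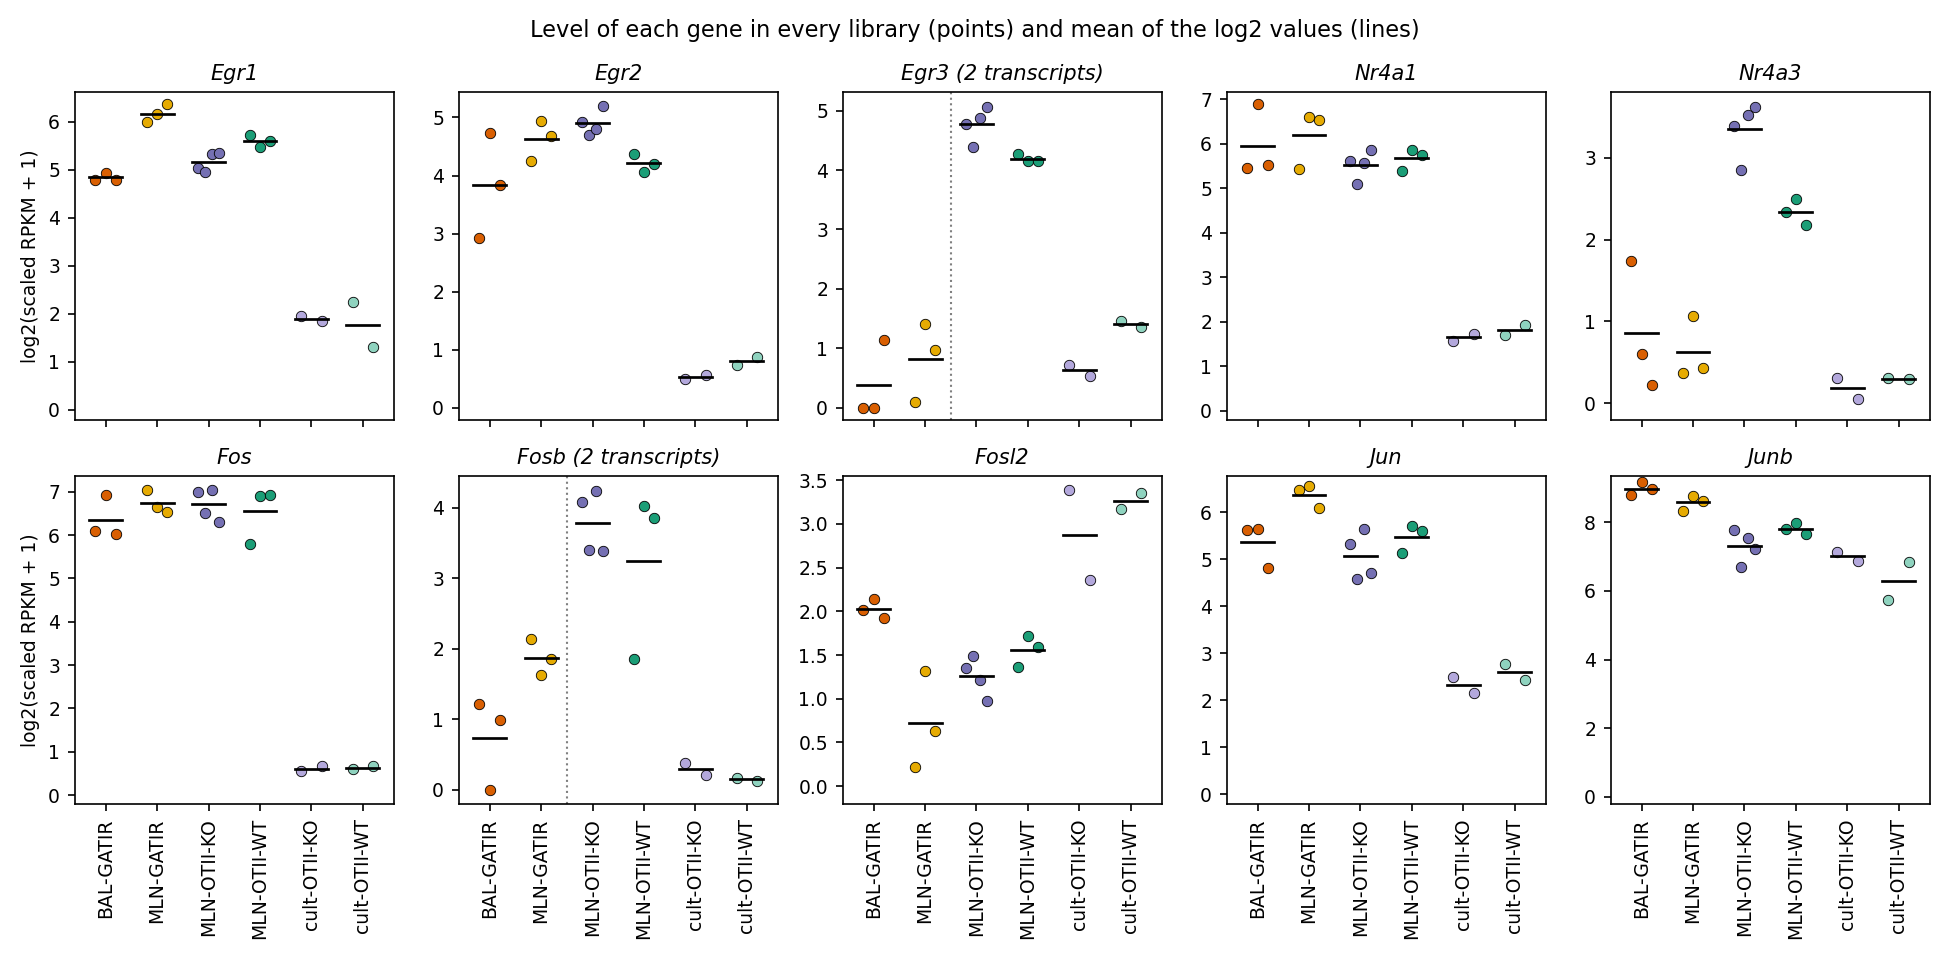
Level of each of the 10 genes in every library (points) on a log2(scaled RPKM + 1) axis, with the mean of the log2 values of each group as a line. The 4 culture libraries sit below every lymph node library for Egr1, Egr2, Nr4a1, Fos and Jun and above every one for Fosl2, and the dotted line in the Egr3 and Fosb panels marks the change of transcript between reporter and OTII tables.

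Among the EGR genes, Egr1 (NM_007913, on chromosome 18 of mm10) averaged 27.7 ± 1.78 in airway and 71.4 ± 9.46 in node reporter cells (SD, n = 3 each). It averaged 35.1 ± 4.97 in knockout-labelled and 47.4 ± 4.11 in wild type node cells, and 2.74 ± 0.167 and 2.60 ± 1.58 in the same genotypes in culture. With the groups ordered by level, the culture pair was the one pair of neighbours that overlapped. Egr2 (NM_001347458, chromosome 10, 67537930 to 67542188) averaged 15.2 ± 9.66 in airway and 24.1 ± 5.91 in node reporter cells, and the airway libraries ranged from 6.60 to 25.7. Its level was 29.2 ± 4.70 in knockout-labelled and 17.6 ± 1.97 in wild type node cells, against 0.445 ± 0.0400 and 0.750 ± 0.126 in culture. Ordered by level, from knockout-labelled node over node reporter and wild type node to airway cells, each group overlapped with the next, while knockout-labelled and wild type node cells did not overlap. Egr3 (chromosome 14, 70077445 to 70082613) reached 26.7 ± 5.22 in knockout-labelled and 17.2 ± 0.848 in wild type node cells and stood at 0.552 ± 0.144 and 1.65 ± 0.121 in culture. In reporter mice it was listed at 0 in 2 of 3 airway libraries and at 1.19 in the other, and it spanned 0.0743 to 1.65 in the node.

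Nr4a1 (NM_010444, chromosome 15, 101266846 to 101274794) averaged 68.7 ± 43.0 in airway and 76.9 ± 30.2 in node reporter cells, 46.2 ± 9.72 in knockout-labelled and 50.5 ± 8.496 in wild type node cells, and 2.15 ± 0.256 and 2.51 ± 0.397 in culture. Ordered by level, the airway and node groups overlapped with their neighbours. The spread in the airway came from 1 library at 118, with the other two at 42.9 and 44.9. Nr4a3 (NM_001307989, chromosome 4, 48051246 to 48056739) averaged 1.01 ± 1.17 in airway and 0.577 ± 0.446 in node reporter cells. It averaged 9.40 ± 2.26 in knockout-labelled and 4.08 ± 0.552 in wild type node cells and rested on 1 to 6 reads per library in culture. The transcript on which Nr4a3 was counted is a short one of 1288 bases, so these values do not speak for its longer transcripts.

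Fos (NM_010234, chromosome 12, 85473901 to 85477270) averaged 83.9 ± 31.4 in airway and 107 ± 20.6 in node reporter cells, and 106 ± 26.1 in knockout-labelled and 98.7 ± 38.2 in wild type node cells. These 4 groups overlapped, and in culture Fos stood at 0.529 ± 0.0847 and 0.551 ± 0.0601, from 19 to 25 reads per library. Fosb (chromosome 7, minus strand, 19302696 to 19310045) averaged 13.2 ± 4.33 in knockout-labelled and 10.5 ± 6.85 in wild type node cells and 0.225 ± 0.107 and 0.106 ± 0.0202 in culture. In reporter mice Fosb was listed at 0 in 1 airway library and at 0.973 and 1.33 in the others, against 2.09 to 3.39 in the node. Fosl2 (NM_008037, chromosome 5, 32136472 to 32157839), which encodes FRA-2, was highest in culture, at 6.80 ± 3.76 in knockout-labelled and 8.60 ± 0.837 in wild type cells. Its next level was 3.08 ± 0.315 in the airway, followed by 1.96 ± 0.363 in wild type node cells, 1.41 ± 0.364 in knockout-labelled node cells and 0.732 ± 0.680 in node reporter cells. The last 3 of these groups overlapped with their neighbours.

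Jun (NM_010591, chromosome 4, minus strand, 95049036 to 95052222) averaged 41.3 ± 12.2 in airway and 82.2 ± 13.8 in node reporter cells, 33.9 ± 12.3 in knockout-labelled and 44.0 ± 8.73 in wild type node cells, and 4.03 ± 0.830 and 5.11 ± 1.02 in culture. Node reporter cells did not overlap with the next group, while the airway and both OTII node groups overlapped. Junb (NM_008416, chromosome 8, minus strand, 84976909 to 84978748) averaged 507 ± 68.9 in airway and 384 ± 57.7 in node reporter cells and 164 ± 49.0 in knockout-labelled and 224 ± 25.3 in wild type node cells. In culture it kept the highest level of the 10 genes, 128 ± 17.7 in knockout-labelled and 82.4 ± 43.2 in wild type cells.

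The comparison of node with cultured OTII cells sets Th2 cells sorted from an inflamed animal beside Th2 cells made in culture, within 1 genotype. The source of the cells, the stimulus and the time since stimulation all differ between these groups and cannot be told apart. In wild type cells, all 10 genes passed the test (limma on log2(scaled RPKM + 1), Benjamini-Hochberg adjusted over all genes tested, threshold 0.05). Of these, 9 rose in the node and Fosl2 fell, where 31% of 11108 genes tested passed in either direction, 13.5% as higher and 17.5% as lower. The median log2 fold change of the 10 genes was 2.99, against -0.03 over all genes tested. None of the 10 overlapped between the groups, as was the case for 57.9% of all genes tested. Egr2, Nr4a3, Fos and Fosb were below 1 in both wild type culture libraries and met the filter through node libraries only. They could hardly come out lower in the node, so the counts and the median of the 10 describe levels and are not support.

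Fos had 54.5, 119.8 and 122 in the wild type node libraries, against 0.508 and 0.593 in the wild type culture libraries. All node libraries lay far above both culture libraries, and the ratio of the means was 179 (log2 fold change on the pseudocount scale 5.92, SE 0.32, adjusted p = 3.03e-05). The Fosb level was 2.62, 15.3 and 13.5 in wild type node libraries, against 0.121 and 0.0921 in culture, with node replicate 1 well below its companions (log2 fold change 3.10, SE 0.58, adjusted p = 0.00679). Egr1 had 51.5, 43.3 and 47.4 in the wild type node, against 3.72 and 1.49 in culture, or 3.82 as log2 fold change (SE 0.25, adjusted p = 5.85e-05). The groups stood apart although the 2 culture libraries differed widely from each other. Egr2 had 19.6, 15.7 and 17.3 in the wild type node, against 0.660 and 0.839 in culture (log2 fold change 3.40, SE 0.14, adjusted p = 1.18e-05). Nr4a1 had 41.0, 57.3 and 53.2 in the wild type node, against 2.23 and 2.79 in culture (log2 fold change 3.86, SE 0.16, adjusted p = 1.29e-05), so that each of these 2 genes had a node mean about 20 times its culture mean or more (ratios 23.4 and 20.1). The log2 fold changes of Egr3, Jun, Nr4a3 and Junb were 2.78, 2.87, 2.04 and 1.53, with a highest adjusted p of 0.00671 for Junb. Fosl2 was the exception, with 1.58, 2.30 and 2.00 in the wild type node and 8.01 and 9.19 in culture (log2 fold change -1.70, SE 0.15, adjusted p = 0.000239).

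In knockout-labelled cells, 9 of the 10 genes passed the same test of node against culture, 8 higher and Fosl2 lower, where 29% of 11227 genes tested passed, 13.7% as higher and 15.3% as lower. Junb alone of the 10 overlapped between the groups, and 49.7% of all genes tested did not overlap. The median log2 fold change of the 10 genes was 3.38, against -0.02 over all genes tested. Here Egr2, Egr3, Nr4a3, Fos and Fosb were below a level of 1 in both culture libraries and met the filter through node libraries only. The same limit on the counts and the median holds. Fos had 126, 89.962, 131 and 78.4 in the knockout-labelled node libraries, against 0.469 and 0.589 in culture (log2 fold change 6.10, SE 0.21, adjusted p = 2.02e-06). Egr2 had 29.1, 25.1, 26.8 and 35.8 in the knockout-labelled node, against 0.417 and 0.474 in culture (log2 fold change 4.37, SE 0.15, adjusted p = 2.02e-06), and Egr3 had 26.3, 19.8, 28.2 and 32.4 in the node, against 0.653 and 0.450 in culture (log2 fold change 4.14, SE 0.19, adjusted p = 7.45e-06). These genes were thus higher in every node library than in either culture library. Junb did not pass in knockout-labelled cells. Its level was 217, 104, 187 and 148 in the knockout-labelled node, against 141 and 116 in culture, and the groups overlapped (log2 fold change 0.30, SE 0.26, adjusted p = 0.430). Without knockout-labelled node replicate 2, which had the lowest Junb of its group, all 10 genes passed.

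**Figure D2:**
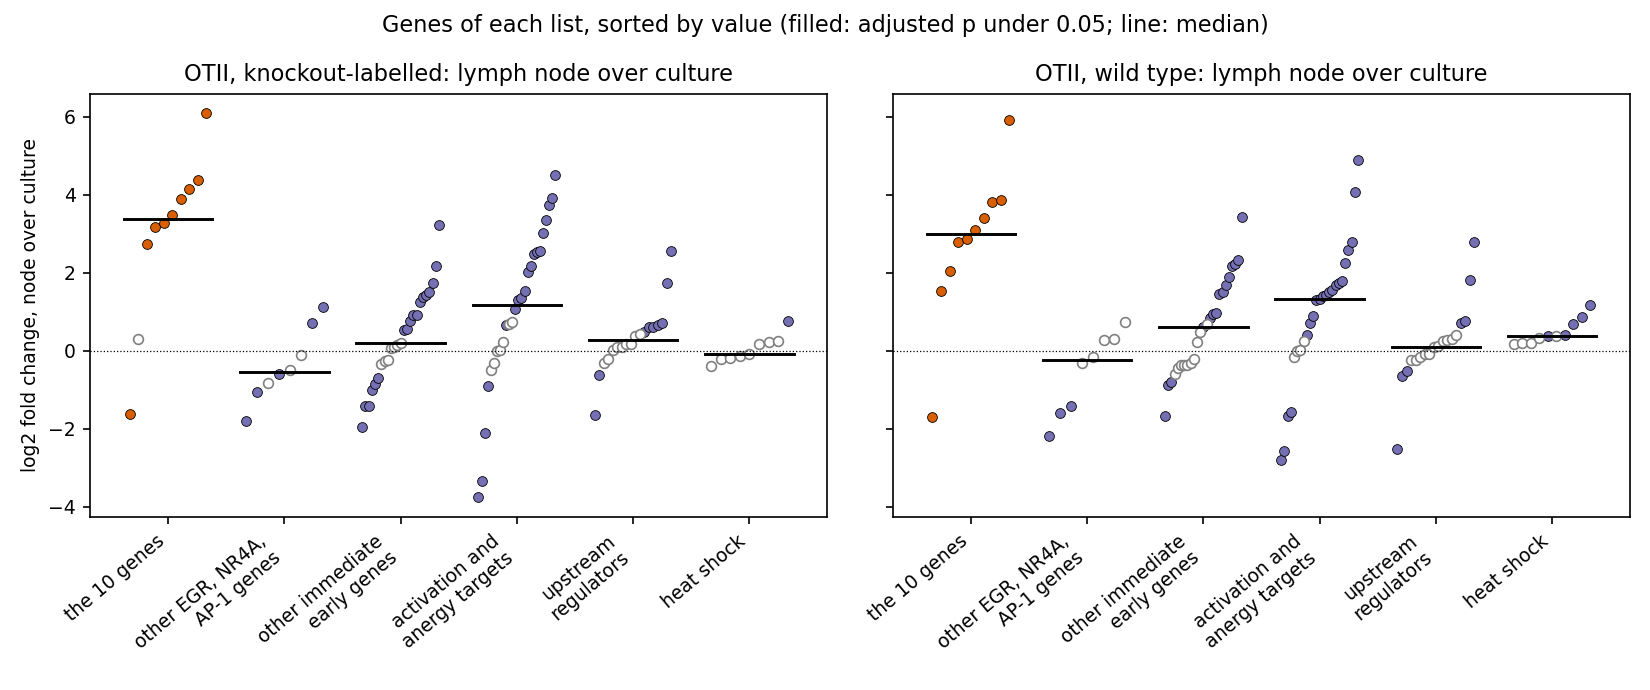
Log2 fold change of lymph node over culture for the tested genes of 6 lists, in knockout-labelled (left) and wild type (right) OTII cells, with each gene as a point, filled where its adjusted p was under 0.05, and the median of the list as a line. The 10 genes have medians of 3.38 and 2.99, and Fosl2 is the lone filled point below 0 in their column.

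Genes of the same families and programs, taken from lists written with earlier results of these data known, did not all move in that way. Of the 10 other EGR, NR4A and AP-1 family genes (such as Atf3, Batf and Jund), 8 were tested in wild type cells, none rose in the node and 3 fell, with a median of -0.23. The 3 were Jdp2, an AP-1 partner that represses, at 2.79 ± 0.0102 in node and 9.19 ± 0.679 in culture (adjusted p = 0.000192), Atf3 (log2 fold change -1.59, adjusted p = 0.000342) and Batf3 (log2 fold change -2.18, adjusted p = 0.00151). Of 25 other immediate early genes, 12 rose and 3 fell in wild type cells, with a median of 0.62. Dusp1, a phosphatase that ends MAP kinase signals, averaged 71.9 ± 17.02 in node and 5.67 ± 0.420 in culture (log2 fold change 3.42, adjusted p = 4.14e-05). Zfp36, whose product speeds the decay of cytokine and immediate early mRNAs, averaged 256 ± 21.4 in node and 56.0 ± 9.68 in culture (log2 fold change 2.18, adjusted p = 5.16e-05), and Gadd45b had a log2 fold change of 2.21 (adjusted p = 5.49e-05).

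Of 18 upstream regulators and corepressors, 4 rose and 3 fell in wild type node cells. Nfatc1, an NFAT factor, had a log2 fold change of 2.78 (adjusted p = 2.97e-05), and Nab2, which binds and restrains EGR proteins, had one of 1.82 (adjusted p = 0.000107). Crem, whose product acts at cAMP response elements, fell with -2.51 (adjusted p = 6.61e-05). Of 25 tested activation and anergy target genes, 17 rose and 4 fell, led by Tox2, Cd200 and the checkpoint receptor gene Lag3 (log2 fold changes 4.90, 4.06 and 2.58, highest adjusted p = 2.73e-05). Heat shock genes, which respond to protein stress, were also higher in part, with 5 of 10 tested risen in wild type cells and Hsph1 at a log2 fold change of 1.18 (adjusted p = 0.00144). In knockout-labelled cells 1 of 9 rose, Hsph1, at 0.75 (adjusted p = 0.0292). The part of heat shock in the node-to-culture difference of the 10 genes was not tested. In knockout-labelled cells the other lists gave 2 higher and 3 lower of 8 family genes, 12 higher and 6 lower of 25 immediate early genes, 7 higher and 2 lower of 18 regulators and 15 higher and 4 lower of 26 targets.

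The stretches before the start sites of 4 genes that moved together, and of Fosl2, are shown because immediate early genes are known to be switched on through short motifs there. A RefSeq table of promoter windows (GRCm38.p6, 250 bases before to 50 after a start) held 8 of the 10 genes, all but Egr1 and Egr3. The 250 bases before the start are printed 5′ to 3′ on the strand of the gene, with the core of the cAMP response element (TGACG, or CGTCA on the other strand), the CArG box of serum response factor and the EGR site GCGNGGGCG in capitals. The window of Fos lies on chr12:85473640-85473889, that of Egr2 on chr10:67537680-67537929, that of Nr4a1 on chr15:101266596-101266845, that of Nr4a3 on chr4:48045055-48045304 and that of Fosl2, the gene that went the other way, on chr5:32136222-32136471, all on the plus strand. The Nr4a3 window belongs to a start upstream of the transcript counted here, which begins at 48051246.
Fos: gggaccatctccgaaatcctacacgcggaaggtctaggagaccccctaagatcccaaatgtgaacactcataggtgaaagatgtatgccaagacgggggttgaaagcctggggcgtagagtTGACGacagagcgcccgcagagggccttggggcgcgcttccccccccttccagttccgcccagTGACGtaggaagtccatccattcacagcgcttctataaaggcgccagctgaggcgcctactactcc
Egr2: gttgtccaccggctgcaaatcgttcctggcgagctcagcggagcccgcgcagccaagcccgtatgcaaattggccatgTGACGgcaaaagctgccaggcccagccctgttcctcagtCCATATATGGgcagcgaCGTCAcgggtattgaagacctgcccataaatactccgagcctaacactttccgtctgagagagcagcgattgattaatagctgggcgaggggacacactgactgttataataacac
Nr4a1: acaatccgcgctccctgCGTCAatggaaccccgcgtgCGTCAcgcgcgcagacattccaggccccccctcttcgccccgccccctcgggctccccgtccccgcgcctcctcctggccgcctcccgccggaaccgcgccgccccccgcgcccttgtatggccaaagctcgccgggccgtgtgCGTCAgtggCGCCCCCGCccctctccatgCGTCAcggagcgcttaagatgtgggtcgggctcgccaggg
Nr4a3: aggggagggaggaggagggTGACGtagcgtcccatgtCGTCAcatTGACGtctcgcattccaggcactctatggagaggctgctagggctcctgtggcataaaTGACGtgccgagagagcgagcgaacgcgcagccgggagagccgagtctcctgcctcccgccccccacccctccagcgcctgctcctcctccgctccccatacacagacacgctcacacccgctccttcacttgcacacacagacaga
Fosl2: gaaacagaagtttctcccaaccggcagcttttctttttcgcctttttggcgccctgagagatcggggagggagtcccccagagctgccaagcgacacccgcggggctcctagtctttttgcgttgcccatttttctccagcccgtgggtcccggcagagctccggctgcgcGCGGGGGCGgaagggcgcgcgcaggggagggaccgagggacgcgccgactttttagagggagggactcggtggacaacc

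The core TGACG was found on either strand in 6 of the 8 windows of 300 bases, those of Egr2, Nr4a1, Nr4a3, Fos, Fosb and Junb, and in 20.81% of all 32851 windows in the table. It occurred 4 times each before Nr4a1 and Nr4a3 and 2 times each before Fos and Egr2. It was not found before Fosl2, and it was not found before Jun either, which rose in the node. The full palindrome TGACGTCA, which contains the core, was in none of the 8 and in 1.79% of all windows. A CArG box was found before Egr2 alone of the 8, 133 bases upstream of its start, and in 1.63% of all windows. The EGR site GCGNGGGCG was found before Nr4a1, Fosb and Fosl2 and in 5.55% of windows. The AP-1 site TGANTCA (7.81% of windows) and the NR4A site AAAGGTCA (1.51%) were in none of the 8, and TGGGAA, the core bound by RBPJ, the DNA-binding partner of Notch, was found before Jun and in 25.56% of windows. These are matches of letters in 1 window per gene, not sites shown to be bound. Variant spellings of these motifs and sites outside the windows were not searched, so a motif not found here may still be present.

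Knockout-labelled node cells were set against wild type node cells, a comparison of Th2 cells of 1 tissue by the Notch1/2 label. Of the 10 genes, Egr2, Egr3 and Nr4a3 rose in knockout-labelled node cells and Egr1 fell, and the other 6 did not pass. The 4 calls stand beside 18.1% of 10869 genes tested that passed in this comparison, 10.4% as higher and 7.68% as lower. The median log2 fold change of the 10 was 0.01, against 0.02 over all genes tested. This comparison shares its libraries with those of node against culture.

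**Figure D3:**
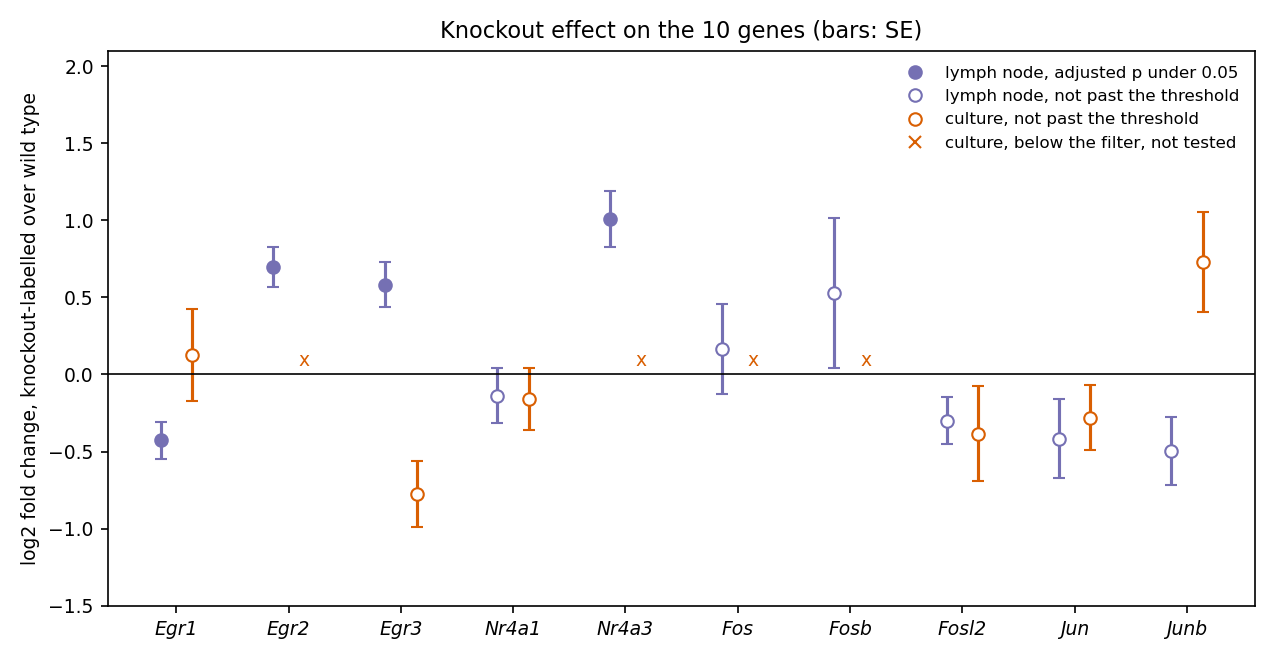
Log2 fold change of knockout-labelled over wild type cells for the 10 genes, in the lymph node (violet) and in culture (orange), with standard errors, filled where the adjusted p was under 0.05 and with a cross where the gene was below the filter. Egr2, Egr3 and Nr4a3 are above 0 and Egr1 below 0 in the node, and no culture point is filled.

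Nr4a3 had 9.52, 6.20, 10.5 and 11.4 in knockout-labelled node libraries, against 4.07, 4.64 and 3.54 in wild type node libraries. Every knockout-labelled library was above every wild type one, with a ratio of means of 2.30 (log2 fold change 1.01, SE 0.18, adjusted p = 0.00587). Egr2 had 29.1, 25.1, 26.8 and 35.8 in knockout-labelled, against 19.6, 15.7 and 17.3 in wild type libraries, again without overlap and with a ratio of 1.66 (log2 fold change 0.70, SE 0.13, adjusted p = 0.00666). Egr3 had 26.3, 19.8, 28.2 and 32.4 in knockout-labelled, against 18.2, 16.8 and 16.8 in wild type libraries. Its groups did not overlap, but knockout-labelled replicate 2 came close to the wild type range (ratio 1.55, log2 fold change 0.58, SE 0.15, adjusted p = 0.0248). Egr1 went the other way, with 31.6, 30.2, 39.2 and 39.6 in knockout-labelled and 51.5, 43.3 and 47.4 in wild type libraries (ratio 0.742, log2 fold change -0.43, SE 0.12, adjusted p = 0.0356). These 4 were the ones of the 10 whose groups did not overlap, against 31.2% of all genes tested.

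The 4 calls differed in how firmly they held. Egr2 and Nr4a3 passed in each of the 7 fits on 6 libraries (largest adjusted p = 0.0371 for Egr2 and 0.0318 for Nr4a3). The Egr1 call was lost when knockout-labelled replicate 1 was left out (adjusted p = 0.0702), and likewise for each of the 3 wild type libraries (0.127, 0.0652 and 0.110 for replicates 1, 2 and 3). The Egr3 call was lost when knockout-labelled replicate 3 or 4 was left out (adjusted p = 0.0628 and 0.0576), and likewise for each wild type library (0.0572, 0.0940 and 0.0881 for replicates 1, 2 and 3). Without the filter on low values, Egr1 and Egr3 did not pass (adjusted p = 0.0605 and 0.0511), and Egr1 did not pass in 1 fit of all 11 OTII libraries (0.145). Headers of the node OTII tables carry paired source numbers (such as KO1-1 and KO1-2) that may mark shared animals or cells. With such libraries averaged to 1 value, Egr2, Egr3 and Nr4a3 passed (adjusted p at most 0.0352), Egr1 did not (0.0557), and Junb passed as lower (log2 fold change -0.49, adjusted p = 0.0104).

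Among the genes that did not pass, Nr4a1, the paralogue of Nr4a3, had 47.8, 33.4, 46.4 and 57.0 in knockout-labelled and 41.0, 57.3 and 53.2 in wild type node libraries, which overlapped (log2 fold change -0.14, SE 0.18, adjusted p = 0.641). Fos had 126, 89.962, 131 and 78.4 in knockout-labelled, against 54.5, 119.8 and 122 in wild type libraries (log2 fold change 0.16, SE 0.29, adjusted p = 0.746). Fosb had 15.9, 9.55, 17.8 and 9.46 in knockout-labelled, against 2.62, 15.3 and 13.5 in wild type libraries (log2 fold change 0.53, SE 0.48, adjusted p = 0.498). Wild type replicate 1 was the low library for both FOS genes, and without it their log2 fold changes were -0.21 and -0.17. Fosl2, Jun and Junb had lower means in knockout-labelled cells (log2 fold changes -0.30, -0.42 and -0.50, lowest adjusted p = 0.158), with overlapping groups. Among the 4 knockout-labelled libraries, replicate 4 was highest and replicate 2 lowest in all 5 EGR and NR4A genes, while Fos and Fosb were highest in replicate 3 and lowest in replicate 4.

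**Figure D4:**
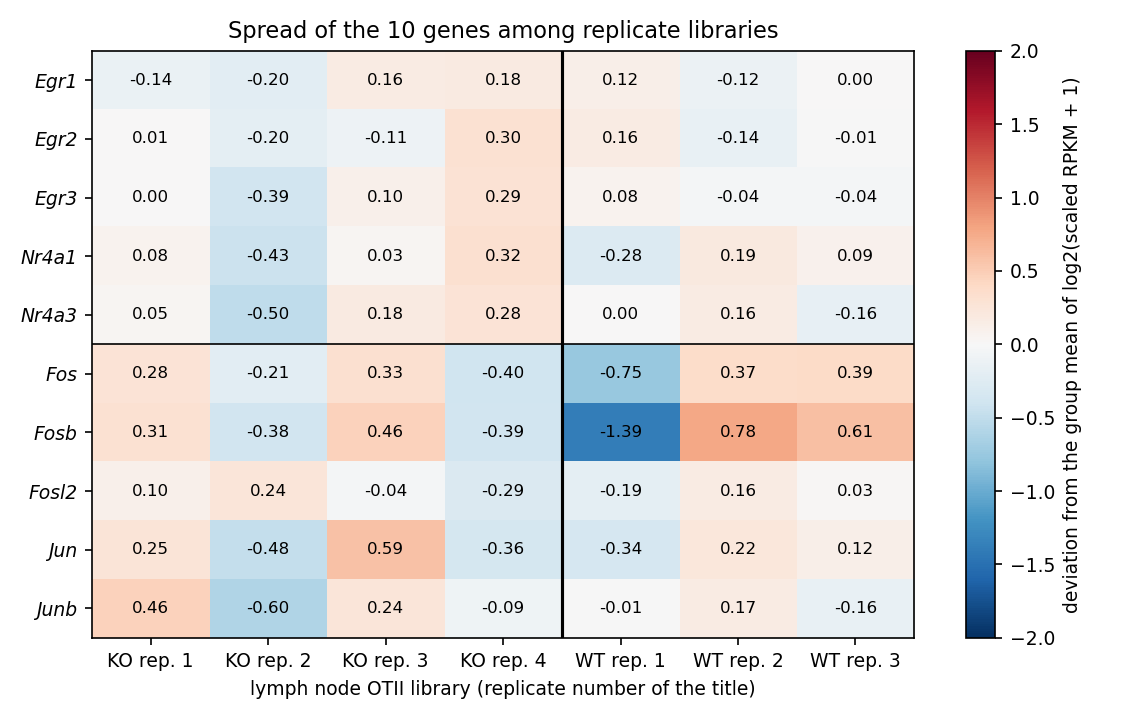
Deviation of each of the 10 genes from its group mean on the log2(scaled RPKM + 1) scale, in the 4 knockout-labelled (left) and 3 wild type (right) lymph node libraries. Knockout-labelled replicate 4 is above its mean in all 5 EGR and NR4A genes and below it in all 5 FOS and JUN genes, and wild type replicate 1 is low in Fos and Fosb.

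Other genes of the program also moved in both directions in knockout-labelled node cells. Of 25 other immediate early genes, 5 rose and 9 fell. Zfp36 had 116, 92.4, 103 and 96.8, against 231, 264 and 272 in wild type libraries (log2 fold change -1.32, SE 0.10, adjusted p = 7.00e-05), and Arc fell to 2.41 ± 0.289, against 5.90 ± 1.14 (adjusted p = 0.00123). Klf10 rose to 18.2 ± 1.13, against 11.4 ± 0.815 (adjusted p = 0.00162). Of 7 tested family genes, 2 rose and 2 fell. Jdp2 averaged 14.3 ± 2.62 in knockout-labelled and 2.79 ± 0.0102 in wild type cells (log2 fold change 2.00, adjusted p = 3.12e-05), Batf3 averaged 31.5 ± 12.7 in knockout-labelled and 6.21 ± 0.807 in wild type cells (log2 fold change 2.09, adjusted p = 0.00141), and Mafk was lower by a log2 fold change of -0.35 (adjusted p = 0.0390).

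Of 18 upstream regulators, 5 rose and none fell, with small changes led by Nfatc2, Elk3 and Elk1 (log2 fold changes 0.35, 0.35 and 0.39, highest adjusted p = 0.0164). Of 25 tested activation and anergy targets, 5 rose and 4 fell. Nrgn averaged 67.6 ± 20.4 in knockout-labelled and 7.99 ± 1.17 in wild type cells (log2 fold change 2.89, adjusted p = 8.77e-05). Il2, the T cell growth factor gene, averaged 4.84 ± 1.23 and 0.395 ± 0.0460 in the same genotypes (log2 fold change 2.04, adjusted p = 0.000109). Tnf averaged 55.6 ± 15.0 and 15.2 ± 2.1003 in them (log2 fold change 1.77, adjusted p = 0.000523). Heat shock genes moved with the genotype as well: 6 of 10 tested fell and none rose, among them Hspe1, Hsp90ab1 and Hspd1 (log2 fold changes -0.67, -0.57 and -0.74, highest adjusted p = 0.00432). Their part in the values of the 10 genes was not tested.

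In culture, no gene of the 10 and none of the 10968 genes tested passed between knockout-labelled and wild type cells (0%), in groups of 2 libraries each. At an unadjusted p under 0.05, limma gave 256 genes, of which Egr3 was 1, and limma voom on the recovered reads called 2 genes at the adjusted threshold and none of the 10. Of the 10 genes, 6 were tested, and Egr2, Nr4a3, Fos and Fosb stayed below the filter of 1 in 2 libraries. Egr3 had 0.653 and 0.450 in knockout-labelled and 1.73 and 1.56 in wild type culture libraries, from 34 to 133 reads (log2 fold change -0.77, SE 0.21, adjusted p = 0.9997). Junb had 141 and 116 in knockout-labelled, against 51.9 and 113 in wild type culture libraries (log2 fold change 0.73, SE 0.32, adjusted p = 0.9997). These were the 2 of the 6 tested genes whose groups did not overlap, beside 21.2% of all genes tested.

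The difference of the knockout effect between node and culture was tested as an interaction over the 11 OTII libraries, where 3.84% of 11508 genes passed, 2.35% with a higher knockout effect in the node and 1.49% with a lower one. Egr3 and Egr2 passed with a higher value in the node. The log2 knockout effect of Egr3 was 0.58 in the node and -0.77 in culture, a difference of 1.36 (SE 0.23, adjusted p = 0.00845). For Egr2 the difference was 0.97 (SE 0.21, adjusted p = 0.0265), with culture levels that rest on 21 to 44 reads per library. It was lost without any 1 of the 4 culture libraries (adjusted p = 0.0688 to 0.0892) and without wild type node replicate 2 or 3 (0.0717 and 0.0706), while that of Egr3 was lost without knockout-labelled culture replicate 2 alone (0.0566). Nr4a3 had a difference of 1.13 and did not pass (SE 0.29, adjusted p = 0.0590), but passed without knockout-labelled node replicate 2 (0.00447). Junb had the lowest value, -1.23, and did not pass (SE 0.45, adjusted p = 0.180), but passed without wild type culture replicate 2 (0.0414). Since Egr2, Egr3, Nr4a3, Fos and Fosb were near the bottom of the scale in culture, the pseudocount of 1 narrows their culture effects. Over other settings that left out no library, the culture effect of Egr3 spanned -1.59 to -0.75 and its difference 1.26 to 2.20. Of the other lists, Jdp2 (difference 2.14, adjusted p = 0.000457), Klf10, Il2, Nrgn and Tnf also had a higher knockout effect in the node. Il2 averaged 0 in both culture groups, so its difference only restates its node effect. Zfp36 (difference -1.41, adjusted p = 0.00162) was among the 3 immediate early genes with a lower knockout effect in the node.

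The airway was set against the node of reporter mice to ask how cells that have reached the airway lumen differ from cells in the node. Of the 8 genes tested, Egr1 fell in the airway and the other 7 did not pass, where 5.27% of 10111 genes passed, 2.97% as higher and 2.3% as lower. The median log2 fold change of the 8 was -0.59, against -0.07 over all genes tested. Egr1 had 26.7, 29.7 and 26.6 in airway libraries, against 62.6, 70.1 and 81.4 in node reporter libraries. The groups stood clearly apart, with a ratio of means of 0.388 (log2 fold change -1.33, SE 0.21, adjusted p = 0.00945). The call was lost without node replicate 2 or 3 (adjusted p = 0.0598 and 0.0720), with the value itself between -1.42 and -1.23 over all 6 libraries left out.

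Jun had 48.0, 48.6 and 27.1 in the airway, against 87.8, 92.3 and 66.4 in the node. The groups did not overlap, and the change missed the threshold (log2 fold change -1.01, SE 0.27, adjusted p = 0.0716), but Jun passed with RPKM as deposited (adjusted p = 0.0415) and with library weights (0.0143). Fosl2 ran in the opposite direction, with 3.05, 3.42 and 2.79 in the airway and 0.160, 1.48 and 0.552 in the node (log2 fold change 1.31, SE 0.50, adjusted p = 0.187). Junb had 439.5, 577 and 505 in the airway, against 322, 436 and 396 in the node (log2 fold change 0.40, SE 0.16, adjusted p = 0.191). Fosb too had no overlap, with log2 fold change -1.14 (adjusted p = 0.269), so that 5 of the 8 tested genes did not overlap, beside 26.9% of all genes tested. Nr4a1, Egr2 and Fos overlapped between the groups (log2 fold changes -0.23, -0.79 and -0.39, lowest adjusted p = 0.400). Egr3 and Nr4a3 were below the filter.

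Macrophage markers separated these groups too. The 13 markers summed to 3198 to 7591 in airway libraries, with 9 to 12 of them at 1 or more, and to 14.1 to 49.99 in node reporter libraries, where Adgre1, Mrc1, Marco, C1qa, Itgax, Clec7a and Car4 were listed at 0 in all 3. Basophil or mast cell markers summed to 279 to 463 in the airway and to 615 to 964 in the node, with Fcer1a, Ms4a2, Gata2 and Prss34 listed at 0 in all 6 libraries. Hdc averaged 182 in the airway and 533 in the node. Cyp11a1 was the only marker of this list with a higher airway mean, 149 against 52.1. It also averaged 163 in knockout-labelled and 160 in wild type cultured cells, so the sum is not a measure of these cells alone. Summed epithelial markers were at 12.8 to 90.2 in the airway and 0.241 to 9.27 in the node, dendritic cell markers at 14.5 to 32.9 and 2.19 to 4.07, neutrophil markers at 5.08 to 17.1 and 0 to 1.15 and eosinophil markers at 20.3 to 33.9 and 8.78 to 17.3. B cell markers overlapped, at 5.70 to 43.6 in the airway and 34.8 to 58.9 in the node. Macrophages also use immediate early genes, and the part of all these cells in the airway values was not tested. Of the other immediate early genes, 2 of 22 tested rose in the airway and none fell. Dusp1 averaged 446 ± 99.98 in airway and 207 ± 18.2 in node cells (log2 fold change 1.08, adjusted p = 0.00958), and Klf6 averaged 113 ± 25.7 in airway and 44.9 ± 0.329 in node cells (log2 fold change 1.29, adjusted p = 0.0113). None of 4 tested family genes passed, and of 18 regulators Crem rose (log2 fold change 1.93, adjusted p = 0.00806) and Nfatc1 fell (-1.29, adjusted p = 0.0232). Of 23 tested targets, 4 rose and 1 fell, led by Icos, Tnfaip3 and Pdcd1 (log2 fold changes 1.09, 2.56 and 1.49, highest adjusted p = 0.00988). Of 9 heat shock genes tested, Hsp90ab1 fell (-1.08, adjusted p = 0.0145) and none rose.

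Node Th2 cells of reporter mice were also set beside wild type OTII node cells. The kind of mouse and of table differ together here, a batch may differ with them, and these cannot be told apart. Genes listed at 0 numbered 12177 to 12982 in node reporter and 9643 to 10128 in wild type OTII node libraries, and their part in low values was not tested. Of 10084 genes tested, 57.6% passed, 22.8% as higher and 34.8% as lower, with a median over all genes of -0.19. Of the 8 genes with 1 shared transcript, Egr1, Jun and Junb were higher in reporter cells, Nr4a3 and Fosl2 were lower, and Egr2, Nr4a1 and Fos did not pass. Groups that did not overlap made up 65.6% of all genes tested. With RPKM as deposited, Egr2 and Nr4a1 passed as higher (adjusted p = 0.0121 and 0.0380), and they also passed without reporter replicate 1 (0.00979 and 0.00169). Basophil or mast cell markers moved with the comparison, with sums of 615 to 964 in reporter and 5.20 to 9.08 in OTII libraries and with Fcer1a, Ms4a2 and Prss34 listed at 0 in all 6. B cell markers summed to 34.8 to 58.9 in reporter and 15.7 to 20.6 in OTII libraries, and the part of these cells was not tested. Gata3, the gene that the reporter marks, averaged 404 ± 55.7 in reporter and 56.0 ± 5.51 in OTII cells. Its log2 fold change was 2.82 (limma adjusted p = 2.29e-06), and its part was not tested either. Junb had 322, 436 and 396 in reporter and 222, 251 and 200.3 in OTII libraries (log2 fold change 0.77, SE 0.13, adjusted p = 0.00149). Jun had 87.8, 92.3 and 66.4 in reporter, against 34.2, 50.7 and 47.2 in OTII libraries (log2 fold change 0.89, SE 0.18, adjusted p = 0.00351), and Egr1 had 62.6, 70.1 and 81.4 in reporter, against 51.5, 43.3 and 47.4 in OTII libraries (log2 fold change 0.58, SE 0.13, adjusted p = 0.00538). Nr4a3 had 0.291, 1.09 and 0.348 in reporter, against 4.07, 4.64 and 3.54 in OTII libraries, and lay below every OTII library (log2 fold change -1.72, SE 0.26, adjusted p = 0.000675). Fosl2 had 0.160, 1.48 and 0.552 in reporter, against 1.58, 2.30 and 2.00 in OTII libraries (log2 fold change -0.84, adjusted p = 0.0447), and kept its call in 1 of the 6 runs that left out a library, the one without reporter replicate 2. It did not pass with RPKM as deposited, with a pseudocount of 0.1 or without the filter (adjusted p = 0.0995, 0.0754 and 0.0766). Jund, the JUN gene outside the 10, was at 3.18 ± 0.788 in reporter and 78.9 ± 11.9 in OTII node cells (log2 fold change -4.26, adjusted p = 2.30e-06). Of the other lists, 7 of 23 immediate early genes were higher and 13 lower in reporter cells, 2 of 15 regulators higher and 12 lower, 1 of 6 family genes higher and 4 lower, 10 of 23 targets higher and 9 lower, and none of 9 heat shock genes higher and 5 lower.

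The genes whose levels followed the 8 shared-transcript genes most closely were sought among 8857 genes with a mean of at least 5 in some group. The measure was Pearson's r over the 17 libraries between the log2 level of a gene and the mean of the standardised log2 levels of the 8 genes, Fosl2 included. The 5 highest were Cd4 (r = 0.966), Plk3 (0.952), Izumo1r (0.951), Bcl2a1b (0.949) and Prkch (0.940). These libraries fall into a culture and a non-culture set, and no r was computed within either set. Cd4 averaged 418 in airway and 502 in node reporter cells, 342 in knockout-labelled and 374 in wild type node cells, and 79.6 and 80.8 in the same genotypes in culture. Izumo1r, which encodes folate receptor 4 of T cells, averaged 105 and 309 in reporter cells, 225 and 376 in OTII node cells and 4.68 and 5.38 in culture.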

How the data were processed

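RNA was measured in 17 Smart-seq2 libraries. For each library the authors deposited a table of RPKM values for 24537 genes, each under 1 RefSeq transcript on mm10. Per the submitters' processing notes, HISAT2 2.0.4, HOMER and DESeq2 were used. RPKM times transcript length gave whole reads in each library (100% of values below 100 reads, tolerance 0.1), hence the depth. RPKM was divided by a median-of-ratios factor over the 6796 genes at 1 or more in all libraries, which assumes that most genes do not differ. Each of the 7 comparisons used limma 3.58.1 (eBayes with trend, R 4.3.3, two-sided) on log2(scaled RPKM + 1) of genes that reached 1 in a number of libraries equal to the size of the smaller group. The pseudocount of 1 understates changes of low genes. P-values were Benjamini-Hochberg adjusted over all genes tested, with a threshold of 0.05, and the text writes rose or fell of genes that passed. The test was run on simulated log2 values with 1 common spread for all genes. Only genes above a low mean level were changed there, so it does not speak for low genes. The 10 genes, the lists and the tests were chosen with earlier results of these data known, so no list is independent support. Genes outside the 10 were named by a rule: up to 3 with the smallest p among called genes of a list. Promoter windows came from a RefSeq table (GRCm38.p6), searched with Python 3.11.15. Other settings tried were the pseudocount, the scaling, the filter, a replicate block, voom on recovered reads, library weights, 1 fit of all OTII libraries and leaving out each library. No gene of the 10 overlapped another gene in the deposited coordinates of 1 library, the one checked. The transcripts of Egr3 and Fosb used in the other kind of table were not checked.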

Additional observations from a re-analysis of the deposited data

Results flagged for a closer look

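The difference of the knockout effect between lymph node and culture drew attention for 2 of the 10 genes, because the interaction over the 11 OTII libraries passed for them. For Egr3 the log2 knockout effect in the node minus that in culture was 1.36 (limma adjusted p = 0.00845), with higher levels in knockout-labelled than in wild type cells in the node and lower ones in culture. For Egr2 the difference was 0.97 (limma adjusted p = 0.0265). Its call held in 3 of the 6 other settings that left out no library (largest limma adjusted p = 0.145), while that of Egr3 held in all 6. In the node, 4 of 4 knockout-labelled libraries were above all 3 wild type libraries for both genes, and in culture both knockout-labelled libraries were below both wild type ones. In the 1 group of 4 libraries, no gene of the 10 had a library far enough from the others to pass Dixon's 95% limit, and groups of 2 or 3 were not examined.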

How the results depend on the processing

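Over 7 comparisons, 810 values of the 10 genes under other settings gave 737 with the same direction and side of the threshold, 36 with a lost call, 12 with a gained call and 25 with another sign. All 10 genes stayed called in wild type node against culture in every setting tried, while 9 or 10 did in knockout-labelled cells. In the airway comparison, 1 gene of the 10 was called, 2 with RPKM as deposited, 2 with the replicate block and 2 with library weights (Egr1 and Jun each time), and 0 to 1 with a library left out. In node knockout against wild type, 4 were called, 2 without the filter, 1 (Egr2) with the replicate block, which ended the calls of Nr4a3 (adjusted p = 0.0584), Egr1 (0.0867) and Egr3 (0.104), and 2 to 4 with a library left out. In the interaction, 2 were called, 1 with the replicate block, 1 with voom and 1 with header sources averaged (Egr3 each time), and 0 to 3 with a library left out. The cause was not tested. Where leaving out a culture library left 1, that library was assumed to vary like the other groups.

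Replicate numbers did not pair the libraries: same-numbered libraries deviated from their group means with r from -0.551 to 0.466 across genes, and with -0.284 in culture. The replicate block called 636 genes in the node knockout comparison in place of 1965, 166 in the interaction in place of 442, 1932 in knockout-labelled node against culture in place of 3251 and 65 in culture in place of 0, none of the 10. With numbers crossed in culture, chosen after seeing the data, as were the averaged header sources, 8 genes and none of the 10 were called. Counts over all genes were 224 without the filter and 244 with voom in the airway comparison in place of 533, 1 with all OTII libraries in 1 fit and 2 with voom in culture, and 257 with header sources averaged in the interaction. With a library left out they were 113 to 554 in the airway comparison, 1008 to 2716 in node knockout against wild type, 0 to 65 in culture, 195 to 555 in the interaction, 2194 to 4363 in wild type node against culture and 1703 to 4235 in knockout-labelled node against culture.

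In reporter against OTII node cells the replicate block added Nr4a1 (adjusted p = 0.0272). Signs turned only where no call was made. In the interaction, Fosl2 was at -0.0178 with a pseudocount of 0.1 and -0.0275 with voom, Nr4a1 at -0.0305 as deposited and -0.0886 with the replicate block, and Fosb at -0.37 with voom. With a library left out, the interaction spanned -0.12 to 0.16 for Nr4a1, -0.19 to 0.38 for Fos, -0.31 to 0.78 for Fosb, -0.43 to 0.60 for Fosl2 and -0.33 to 0.0365 for Jun. Node knockout against wild type spanned -0.28 to 0.00632 for Nr4a1, -0.21 to 0.36 for Fos and -0.17 to 0.92 for Fosb, culture -0.34 to 0.59 for Egr1 and -0.90 to 0.13 for Fosl2, airway -0.70 to 0.0176 for Nr4a1, and reporter against OTII node -0.19 to 0.38 for Fos. Of 60 group levels, 54 moved by less than 1 SD between scaled and deposited RPKM, and 2 of 12 group orders changed, those of Egr2 and Jun. Depth limits Nr4a3, Fos and Fosb in culture, which rested on 1 to 25 reads per library and, below the filter, were not tested there between genotypes.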
